A study of Homo sapiens with 2 samples.

Results

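Chromatin accessibility at the receptors, ligands and HES/HEY targets of the Notch pathway was described in CAMA-1, a human breast cancer cell line of epithelial type. The method was ATAC-seq, which relies on the Tn5 transposase to cut open DNA and tag it with adapters for sequencing. The data comprised 2 biological replicates of untreated cells in serum-containing medium, which form a single condition, so no groups were compared and no p-value is given. The 10 genes were NOTCH1, NOTCH2, NOTCH3, NOTCH4, JAG1, JAG2, DLL1, HES1, HEY1 and HEY2, out of 20033 protein-coding genes in GENCODE release 44 (hg38). The rule lists them by name and applies no threshold to the peak values. Peaks were taken over each gene body and 20 kb on either side. A region was a set of overlapping peaks with at least 1 peak in each replicate, and 160 of the 215195 regions in the genome lay at these genes, with 95 at receptors, 41 at ligands and 24 at targets. No region was counted at more than 1 of the 10 genes.

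Notch receptors are single-pass membrane proteins that are activated when a DSL ligand (Jagged or Delta-like) on a neighbouring cell pulls on their extracellular part. ADAM proteases and then γ-secretase cut the bound receptor, and the released intracellular domain enters the nucleus, where it joins the DNA-binding protein RBPJ and a Mastermind co-activator at target genes such as HES1, HEY1 and HEY2. HES and HEY proteins are basic helix-loop-helix repressors, and in the mammary gland Notch signalling is known for its part in luminal cell fate and in breast tumours.

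The values are fold enrichments, the ratio of the stacked reads at the highest base of a peak to the background of the peak caller, with 1 added to both. Replicate 1 held 245736 peaks and replicate 2 held 259745. Read totals are not part of the peak lists, but the fold enrichments rise in whole steps, from which the background was 3.35 stacked reads (replicate 1) or 3.52 (replicate 2), with a median peak height of 35 in both. Intervals on heights are exact Poisson 95% intervals and cover counting error only. A single background served the whole genome, and DNA copy number was not analysed here. The cell type given in the labels was checked against markers: 9 of 10 luminal epithelial genes had a peak over the canonical transcription start site (TSS) in both replicates, against 1 of 6 basal or mesenchymal genes (ZEB1), 0 of 5 blood genes and 65.0% of protein-coding genes. With a peak within 1 kb of any TSS of the gene, the counts were 10 of 10, 5 of 6 and 1 of 5, against 79.3%, so by this wider rule the luminal and the basal or mesenchymal lists were not set apart.

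The promoters of the canonical target genes and of a receptor without a peak over its canonical TSS are shown first, because they differ in the letters that RBPJ and the HES/HEY repressors are known to bind. RefSeq promoters (hg38) were matched for 8 of the 10 genes (not DLL1 and HEY1). The 250 bases before the RefSeq start are printed on the strand of the gene, and capitals mark matches on either strand to TGGGAA (the core of the RBPJ motif), CACGTG (E-box), CACGCG (class C site) or CACNAG (N-box). The first promoter lies at chr3:194135898-194136147 (+), the second at chr6:125749382-125749631 (+) and the third at chr6:32224068-32224317 (−).
HES1: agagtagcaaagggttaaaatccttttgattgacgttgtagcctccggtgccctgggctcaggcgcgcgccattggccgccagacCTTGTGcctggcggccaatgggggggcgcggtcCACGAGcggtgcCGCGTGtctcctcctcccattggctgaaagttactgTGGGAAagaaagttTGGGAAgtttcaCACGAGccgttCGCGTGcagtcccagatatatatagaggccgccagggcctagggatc
HEY2: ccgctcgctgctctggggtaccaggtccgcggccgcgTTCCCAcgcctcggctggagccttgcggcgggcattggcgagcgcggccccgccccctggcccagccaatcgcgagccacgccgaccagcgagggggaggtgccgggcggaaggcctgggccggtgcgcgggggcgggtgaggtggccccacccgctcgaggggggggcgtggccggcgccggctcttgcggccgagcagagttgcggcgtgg
NOTCH4: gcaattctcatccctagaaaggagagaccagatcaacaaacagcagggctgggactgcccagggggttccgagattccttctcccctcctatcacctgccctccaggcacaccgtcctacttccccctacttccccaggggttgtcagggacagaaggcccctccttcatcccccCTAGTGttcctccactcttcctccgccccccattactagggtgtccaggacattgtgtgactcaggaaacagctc

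The HES1 promoter held 2 matches to TGGGAA on the same strand, which began 84 and 70 bases before the start and were separated by 8 bases. The first was also a match to GTGGGAA. It further held 2 class C matches, 120 and 47 bases before the start, and 3 N-box matches, 165, 132 and 58 bases before it. HEY2 held 1 match to TGGGAA, 213 bases before the start and part of GTGGGAA on the opposite strand. None of the other 6 promoters held TGGGAA. Of all 27305 promoters in the table, 21.1% held TGGGAA, 5.46% held GTGGGAA, 9.62% held CACGCG, 32% held CACNAG and 6.49% held CACGTG, so a single match to TGGGAA is common. CACGTG was not found in the 8 promoters. Besides HES1, CACGCG was found in JAG2, and CACNAG in NOTCH3 and NOTCH4. A match describes letters and is not a measurement of binding.

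All 10 genes had a peak within 1 kb of an annotated TSS in both replicates, as did 79.3% of protein-coding genes. The same 10 genes had a peak within 1 kb of the canonical TSS (that of the transcript Ensembl marks as canonical), against 73.5% of protein-coding genes. With the canonical TSS base itself under a peak, the count was 8 of 10, against 65.0%, and the genes without were NOTCH4 and DLL1. The median fold enrichment of the strongest TSS peak was 50.2 over the 10 genes and 52.6 over all protein-coding genes with one, so as a group the 10 genes did not stand out in promoter accessibility. The spread among them was wide, from 10.2 for NOTCH2 to 173 for NOTCH4 as means of the replicates. The NOTCH4 value comes from a region shared with the TSS of another gene, as described below.

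**Figure D1:**
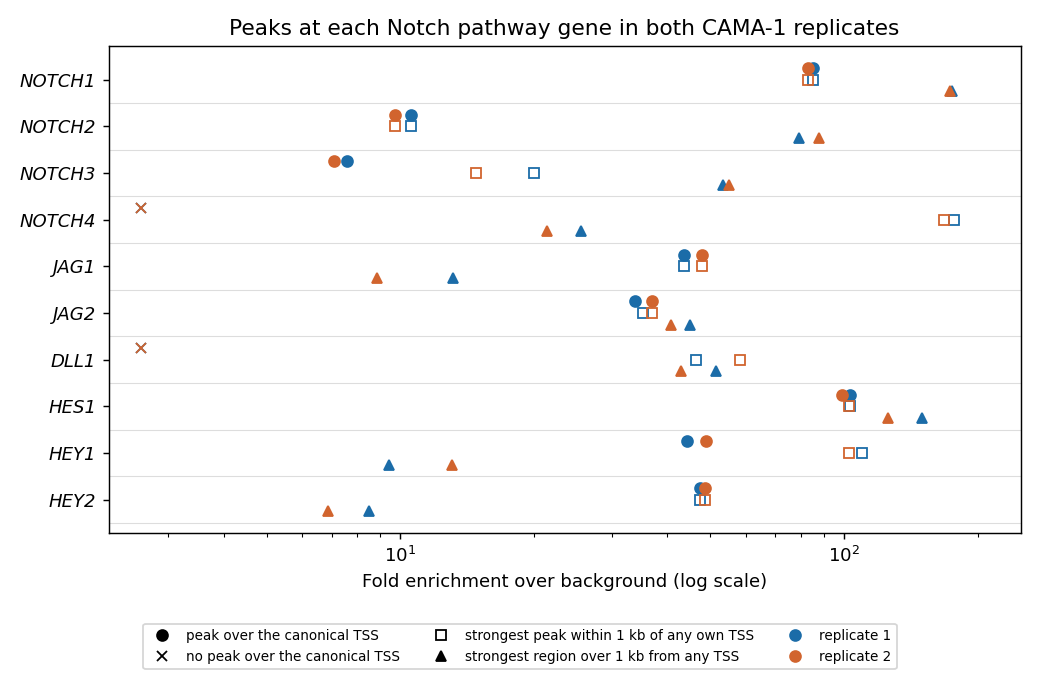
Fold enrichment (log scale) at each of the 10 genes in replicates 1 and 2, for the peak over the canonical TSS, the strongest peak within 1 kb of any TSS of the gene, and the strongest region more than 1 kb from any TSS. NOTCH4 and DLL1 have no peak over the canonical TSS (crosses, placed at the left edge and not to scale), and the strongest TSS peak of NOTCH4, at 177 and 168, lies at the other end of the gene.

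Among the receptors, NOTCH1 had by far the most accessible canonical promoter. NOTCH1, a receptor required for many cell fate decisions, spans chr9:136494433-136546048 on the minus strand. Its TSS peak had a fold enrichment of 85.4 in replicate 1 and 82.9 in replicate 2, or 84.1 ± 1.73 (SD, n = 2), which put it above 75.5% of protein-coding genes with a TSS peak. The heights were 370 stacked reads (333 to 410) and 374 (337 to 414), so the replicates did not differ beyond counting error.

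NOTCH2, the receptor with the longest gene of the 4, spans chr1:119911553-120100779 on the minus strand. Its TSS peak was low, at 10.6 and 9.73 (10.2 ± 0.604, SD, n = 2), above only 8.38% of protein-coding genes with a TSS peak. The heights were 45 stacked reads (32.8 to 60.2) and 43 (31.1 to 57.9), and the peak covered the canonical TSS in both replicates. This promoter lies in sequence that is repeated elsewhere, which is described below with the other NOTCH2 regions.

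NOTCH3, a receptor known best from vascular smooth muscle and also expressed in luminal progenitors, spans chr19:15159038-15200995 on the minus strand. The strongest peak within 1 kb of its TSS reached 20.02 in replicate 1 and 14.8 in replicate 2 (17.4 ± 3.68, SD, n = 2), and it lay in the first intron. The peak over the TSS base was weaker, at 7.59 and 7.08, with heights of 32 (21.9 to 45.2) and 31 (21.1 to 44) stacked reads. Among protein-coding genes with a peak over the canonical TSS in both replicates, only 3.04% had a lower one.

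NOTCH4, a receptor known mainly from endothelium, spans chr6:32194843-32224067 on the minus strand. Neither replicate had a peak over its canonical TSS, and the nearest peaks were 861 and 825 bp away, with fold enrichments of 8.97 and 8.40. The strongest TSS peak by the rule of any annotated TSS, at 177 and 168, lay within 1 kb of the TSS of short NOTCH4 transcripts near the 3′ end of the gene. That region, chr6:32194831-32196700, also covers the TSS of GPSM3, a neighbouring gene for a G protein regulator, and the promoters of the 2 genes cannot be told apart there. The 501 bp around the canonical NOTCH4 TSS had a ratio of observed to expected CpG of 0.149, the lowest of the 10 genes, for which the other values ran from 0.719 to 1.03 (median of protein-coding genes, 0.776). The NOTCH4 promoter printed above is the upstream part of this CpG-poor stretch.

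The 3 ligand genes had moderate TSS peaks. JAG1, the Jagged ligand most often linked to breast cancer, spans chr20:10637684-10673999 on the minus strand, and its TSS peak was at 43.5 and 47.8 (45.6 ± 3.02, SD, n = 2). JAG2, its closest relative, spans chr14:105140982-105168824 on the minus strand and reached 35.2 and 36.9 (36.1 ± 1.22, SD, n = 2). Among protein-coding genes that had a TSS peak, both therefore lay below the median, above 43.2% and 33.1% of such genes.

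DLL1, a Delta-like ligand, spans chr6:170282206-170306565 on the minus strand and has 2 annotated TSSs. The canonical TSS was not under a peak in either replicate, and the closest peaks ended 117 bp (replicate 1) and 122 bp (replicate 2) from it. The region formed by these peaks covers a TSS of FAM120B, a neighbouring gene. The strongest peak within 1 kb of the canonical TSS was at 22.8 and 29.2. The upstream TSS carried a stronger region, chr6:170306231-170307125, at 46.5 and 58.2 (52.3 ± 8.26, SD, n = 2). This region also covers another TSS of FAM120B, and the promoters of the 2 genes cannot be told apart there. The heights there were 201 (174 to 231) and 262 (231 to 296) stacked reads. This was the only 1 of the 160 regions whose replicate intervals on raw height did not overlap. Heights were not scaled for the difference in background between the replicates, so this count does not carry over to the fold enrichments.

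The 3 target genes were above the ligands or near them. HES1, the target most widely used as a readout of Notch signalling, spans chr3:194136148-194138732 on the plus strand. Its strongest TSS peak was at 103 in both replicates, above 84.8% of protein-coding genes with a TSS peak. In replicate 1 a single peak ran from upstream of the gene almost to its 3′ end, and in replicate 2 the same stretch held 2 peaks, of which the one over the TSS was at 99.1. The merged region, chr3:194131995-194138515, was 6521 bp wide, the widest of the TSS regions of the 10 genes, where the median over all regions was 363 bp.

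HEY1, a target and partner of HES1, spans chr8:79762371-79767857 on the minus strand. Over its canonical TSS the peak was at 44.2 and 48.9. A stronger peak, at 110 and 103 (106 ± 5.22, SD, n = 2), lay inside the gene over coding exon 5, 662 bp from the TSS of a shorter HEY1 transcript. HEY2, a relative known from heart and vessel development, spans chr6:125747664-125761269 on the plus strand, and its TSS peak was at 47.4 and 48.6 (48.0 ± 0.883, SD, n = 2).

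Ordered by the strongest TSS peak, the genes ran from NOTCH4 through HEY1, HES1, NOTCH1, DLL1, HEY2, JAG1, JAG2 and NOTCH3 to NOTCH2. In this order, the values of NOTCH4 and DLL1 come from regions that also cover a TSS of GPSM3 and of FAM120B, respectively. The regions of HES1 and HEY2 also cover a TSS of another annotated gene, which has no symbol at HES1 and is HEY2-AS1 at HEY2. In replicate 2 the HES1 value comes from a peak that ends upstream of the HES1 TSS. The ranges of the 2 replicates overlapped between HEY1 and HES1, between DLL1 and HEY2, and between HEY2 and JAG1, so these neighbours were not separated by the spread of the replicates. By the peak over the canonical TSS, HES1 and NOTCH1 came first and NOTCH2 and NOTCH3 last among the 8 genes that had one.

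Away from promoters, 106 of the 160 regions (66.3%) lay more than 1 kb from the TSS of any gene, less than the 80.1% of all regions in the genome. Of these, 45 were in introns of the canonical transcript, 27 upstream, 28 downstream, 5 in coding exons (3 at NOTCH1 and 1 each at NOTCH2 and NOTCH4) and 1 in an untranslated exon of NOTCH3. The density of regions was highest at NOTCH1, with 43 regions or 46.9 per 100 kb, which exceeded that of 99.0% of protein-coding genes. This order depended on the setting. With −log10 q of at least 10, NOTCH1 fell to 25.1 and JAG2, at 26.5, was higher, and within gene bodies alone HES1, at 77.4, was above NOTCH1, at 54.2. Over the full span and all peaks, JAG2 followed with 25 regions (36.8 per 100 kb, above 95.5% of genes), and NOTCH4 (18 regions, 26.0) and HES1 (11 regions, 25.8) came next. The lowest densities were those of JAG1, with 6 regions (7.86), and NOTCH2, with 19 regions over a much longer span (8.29), although within gene bodies alone JAG1 was at 16.5 and NOTCH2 at 6.87. The median density was 16.9 per 100 kb for the 10 genes and 11.6 for protein-coding genes.

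**Figure D2:**
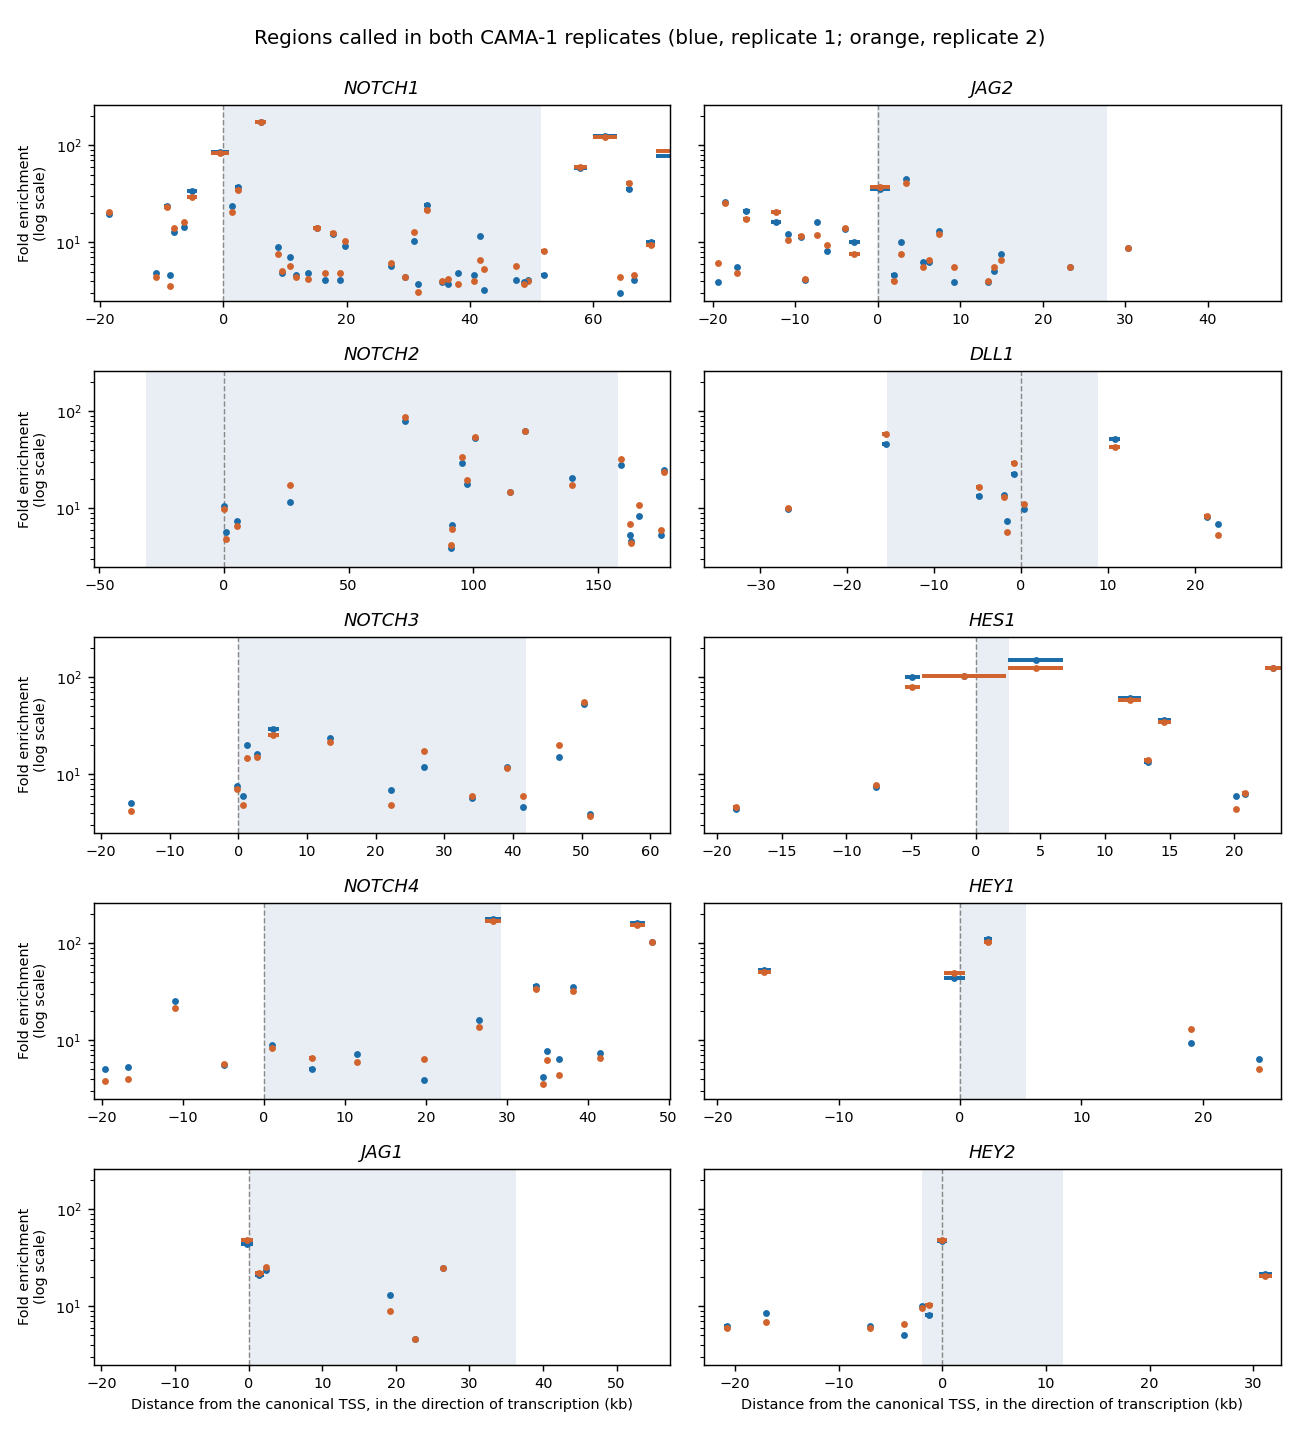
Regions called in both replicates at each of the 10 genes, by distance from the canonical TSS in kb (x axis, in the direction of transcription) and fold enrichment (y axis, log scale). Bars span the merged region at its true width, points mark its midpoint, shading marks the gene body and the dashed line the canonical TSS. NOTCH1, with 43 regions, has its highest in the gene body, and the widest region in the HES1 panel, 6521 bp, covers the whole promoter.

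At 7 of the 10 genes the strongest region more than 1 kb from any TSS exceeded the peak at the canonical TSS, and the same held for 52.1% of protein-coding genes. The exceptions were JAG1, HEY1 and HEY2. For each of the genes, the strongest such region is described next. The central 200 bp of 3 of them are shown on the plus strand because they are the strongest region of a receptor, the strongest of a target, and the only one with a pair of TGGGAA matches. They lie at chr9:136539847-136540046, chr3:194140689-194140888 and chr19:15150488-15150687. Capitals mark matches on either strand to TGGGAA, to the AP-1 motif TGANTCA, to the forkhead motif TGTTTAC or to the GATA motif AGATAA.
NOTCH1 intron 2: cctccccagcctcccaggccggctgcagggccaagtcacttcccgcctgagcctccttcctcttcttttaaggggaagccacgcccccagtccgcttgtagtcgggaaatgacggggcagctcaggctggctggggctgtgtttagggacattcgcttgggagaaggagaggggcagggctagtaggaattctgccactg
HES1 downstream: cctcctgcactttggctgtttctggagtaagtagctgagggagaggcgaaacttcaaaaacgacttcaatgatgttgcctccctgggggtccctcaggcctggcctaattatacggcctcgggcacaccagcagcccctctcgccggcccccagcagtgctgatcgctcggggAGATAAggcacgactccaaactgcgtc
NOTCH3 downstream: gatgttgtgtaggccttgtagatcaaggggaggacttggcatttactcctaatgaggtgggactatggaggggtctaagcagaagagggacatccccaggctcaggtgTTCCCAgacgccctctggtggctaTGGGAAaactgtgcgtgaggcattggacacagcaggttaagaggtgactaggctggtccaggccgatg

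The NOTCH1 region in intron 2, chr9:136539060-136540833, was centred 6102 bp downstream of the TSS and had a fold enrichment of 175 in replicate 1 and 173 in replicate 2. It exceeded 99.8% of all regions in the genome, and was about as strong in both replicates, with 761 (708 to 817) and 783 (729 to 840) stacked reads. Its central 200 bp held none of the 4 marked motifs. Next to NOTCH1, the promoter of SEC16A, a gene of vesicle export, reached 126 and 121.

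The strongest HES1 region outside promoters lay downstream of the gene, at chr3:194138677-194142899, with fold enrichments of 150 and 126 and a width of 4223 bp. It began at the end of the gene, close to the promoter region, so accessible chromatin ran almost without a gap across HES1. Its central 200 bp held 1 match each to AGATAA, the CTCF core, the AP-2 word and the N-box, of which only AGATAA is marked in capitals. A separate region further downstream, chr3:194158552-194159734, was at 124 in both replicates. Upstream, the TSS of the non-coding gene LINC02924 carried a region at 101 and 80.3. HES1 was therefore flanked by strong regions on both sides.

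The NOTCH3 region lay downstream of the gene at chr19:15150311-15150863, at 53.4 and 55.1, several times the level of the NOTCH3 promoter in both replicates. Its pair of TGGGAA matches faced opposite strands with 18 bases between them. Those bases held the only N-box match of the central 200 bp, which was not marked in capitals. On the minus strand the same bases matched the CTCF core except at its last letter. TGGGAA was found in 18.9% of all regions, and the pair is not a measurement of binding. Its heights were 231 (202 to 263) and 248 (218 to 281) stacked reads, so the replicates overlapped. At NOTCH4 the strongest region away from a TSS lay upstream at chr6:32234917-32235267, at 25.5 and 21.4, with 1 match to GTGGGAA in its central 200 bp. The strongest region near NOTCH4 was the one shared with the TSS of GPSM3, described above. It was followed by a region at the promoter of AGPAT1, a phospholipid synthesis gene, at 161 and 155.

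Among the ligands, JAG2 had a region in intron 2, chr14:105164988-105165659, at 44.9 and 40.7, above its own promoter in both replicates. DLL1 had a region downstream of the gene, chr6:170279673-170280953, at 51.5 and 42.9, close to the level of its upstream TSS. JAG1 had only a weak one in intron 5, chr20:10654586-10655008, at 13.1 and 8.85, with 1 match to GTGGGAA. Among the remaining targets, the strongest region was at 9.43 and 13.0 for HEY1 (downstream, chr8:79748645-79748902) and at 8.51 and 6.85 for HEY2 (upstream, chr6:125732549-125732787). Accessibility at JAG1, HEY1 and HEY2 was thus highest at the gene itself.

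NOTCH2 differed from the other genes in the sequence under its peaks. Part of the gene has been copied within chromosome 1 to form the NOTCH2NL genes, which carry the first exons of NOTCH2. Of the 501 bp around the canonical NOTCH2 TSS, 90% of all words of 32 bases and 54.2% of words of 100 bases occurred again elsewhere in hg38. Within the TSS region itself, chr1:120069258-120069746, the shares were 80.6% and 14.4%. For NOTCH4 the share of 32-base words was 1.70% and for the other 8 genes it was 0. Among the 19 NOTCH2 regions, 5 had most of their 32-base words elsewhere, and the other 14 had at most 16.6%. Of the 141 regions at the other 9 genes, 120 had no word repeated and 2 had most of them repeated, a weak one downstream of NOTCH1 (4.14 and 4.64) and one downstream of NOTCH4 at the TSS of another gene (35.2 and 32.3).

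The strongest NOTCH2 region was 1 of these 5. It covered coding exon 4 (chr1:119996906-119997415) at 79.2 and 88.0, and 70.1% of its 32-base words and 11.4% of its 100-base words occurred elsewhere. The strongest NOTCH2 regions in sequence with few copies were in intron 16 (chr1:119948349-119949175, 63.0 and 62.6, no word repeated) and intron 6 (chr1:119968001-119969699, 52.5 and 54.0, 2.16%). Both exceeded the NOTCH2 promoter several times over.

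**Figure D3:**
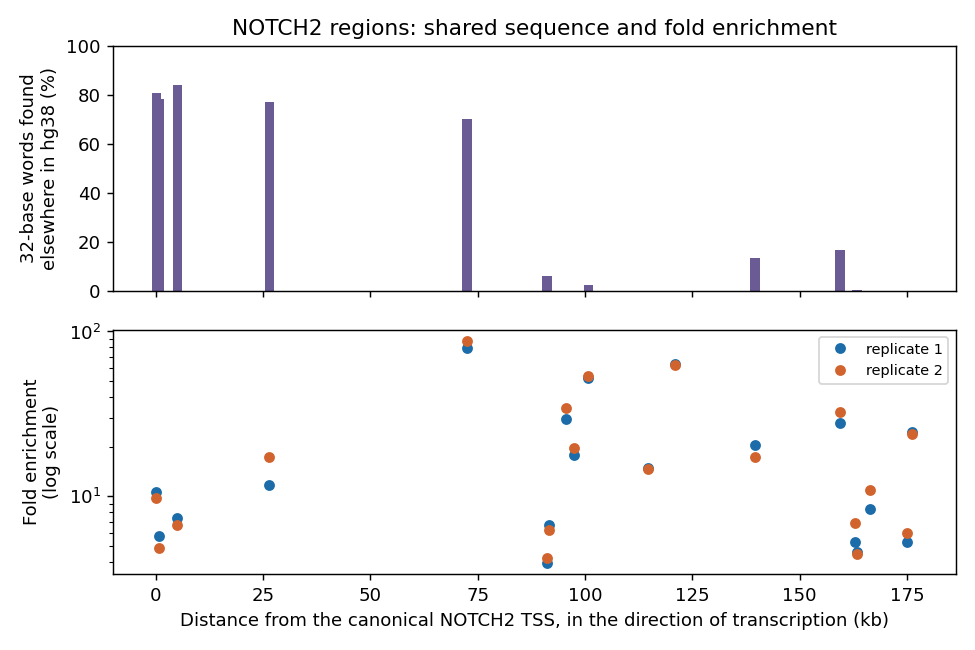
The 19 NOTCH2 regions by distance from the canonical TSS in kb (x axis, in the direction of transcription), with the share of their 32-base words found elsewhere in hg38 (top) and their fold enrichment in both replicates (bottom, log scale). The 5 regions nearest the TSS have over 70% of their words elsewhere, and only the last of them, at 79.2 and 88.0, has a high fold enrichment.

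The copies themselves had peaks in part. At the TSS, NOTCH2NLC reached 20.2 and 18.4, NOTCH2NLB 15.4 and 14.4, NOTCH2NLR 5.06 and 4.86, and NOTCH2NLA 4.37 and 4.20, against 10.6 and 9.73 at NOTCH2. At the copies of exon 4, NOTCH2NLB had a peak at 12.0 and 13.5 and NOTCH2NLR at 5.52 and 8.18, and no peak was called at those in NOTCH2NLA and NOTCH2NLC. Exon 4 was thus several times stronger at NOTCH2 than at any copy, and the promoter was not. How reads that fit several copies were placed is not given in the sources used here. The part of shared sequence in the low NOTCH2 promoter value, and in the contrast between exon 4 and its copies, was not tested.

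Letters of motifs were counted in the 200 bp around the midpoint of each region. TGGGAA was found in 31 of the 160 regions (19.4%, Wilson 95% interval 14 to 26.2), against 18.9% of all regions, so the core of the RBPJ motif was no more frequent at these genes than elsewhere. It was found in 10 regions at NOTCH1, 5 at NOTCH4, 4 at NOTCH2, 3 each at NOTCH3 and JAG2, 2 each at HES1 and HEY2, 1 each at JAG1 and HEY1 and 0 at DLL1. The matches printed above for the HES1 promoter are not among them, since they lie outside the central 200 bp of that wide region. The longer GTGGGAA was found in 13 regions (8.13%, 4.81 to 13.4), against 4.26%. CACGCG was found in 10 regions (6.25%) against 1.76%, and AGATAA in 5 regions (3.13%; 2 at HES1 and 1 each at NOTCH1, NOTCH2 and HEY2) against 9.36%. The AP-2 word was found in 30 regions (18.8%) against 11.7%, AP-1 in 6.25% against 10.1%, and the forkhead word in 2.5% against 5.61%. For the N-box the shares were 35.6% against 37.7%, for CACGTG 5% against 3.35% and for the CTCF core 4.38% against 3.08%. The estrogen response element was found in 0 regions, against 0.0646%. The GC content of the windows differed as well, with a median of 61% at the 10 genes and 50% over all regions, and its part in these shares was not tested. Neighbouring regions of a gene are not independent, so the intervals describe counting error only.

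The replicates differed little at these genes. Of the peaks there, 186 were in replicate 1 and 193 in replicate 2. Those found again in the other replicate were 164 (88.2%) and 166 (86.0%), where the shares over all peaks were 90.2% and 84.7%. The log2 ratio of replicate 2 to replicate 1 in fold enrichment had a median of −0.03 and an SD of 0.27 over the 160 regions, and 0.03 and 0.29 over all regions. Intervals on raw height, not scaled for background, overlapped between replicates in 159 of the 160 regions. The peaks without a partner numbered 22 and 27.

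The other parts of the pathway were examined in a list of 56 genes, of which 55 had a peak within 1 kb of a TSS in both replicates (79.3% of protein-coding genes, as above). Within 1 kb of the canonical TSS the count was 51 (73.5% of protein-coding genes). The only gene without a peak within 1 kb of any TSS was DTX2, a Deltex ubiquitin ligase gene. All 15 genes of the nuclear complex and its co-repressors had a TSS peak, with a median fold enrichment of 57.5. They included RBPJ itself, at 97.6 and 87.6, and ranged from RBPJL, a tissue-restricted relative of RBPJ, at 4.83 and 4.64 to MAML1, a Mastermind co-activator, at 124 and 128. All 9 receptor processing genes had one (median 72.7), from APH1B at 30.8 and 27.4 to APH1A at 115 and 109, both of which encode γ-secretase subunits.

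Glycosyltransferases, which tune the choice of ligand by the receptor, had a TSS peak in 5 of 5 genes (median 54.2), from RFNG at 28.8 and 36.3 to LFNG at 107 and 111. Genes of endocytosis and turnover had one in 13 of 14 (median 60.9). The lowest of them was DTX3 at 18.2 and 15.7, and the highest was NUMB, an inhibitor of Notch, at 154 in both replicates. The other 7 HES and HEY genes all had one (median 51.3), from HES5 at 38.2 and 40.2 to HES2 at 89.3 and 93.8. The ligands and ligand-like genes outside the 10 genes had one in 6 of 6 but at the lowest median, 23.3, from MFAP5 at 5.75 and 6.41 to DLL4 at 49.7 and 52.2. Of these 6, DLK1 and MFAP5 had no peak within 1 kb of the canonical TSS in both replicates, and neither did DTX1 and RBPJL in the other groups.

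**Figure D4:**
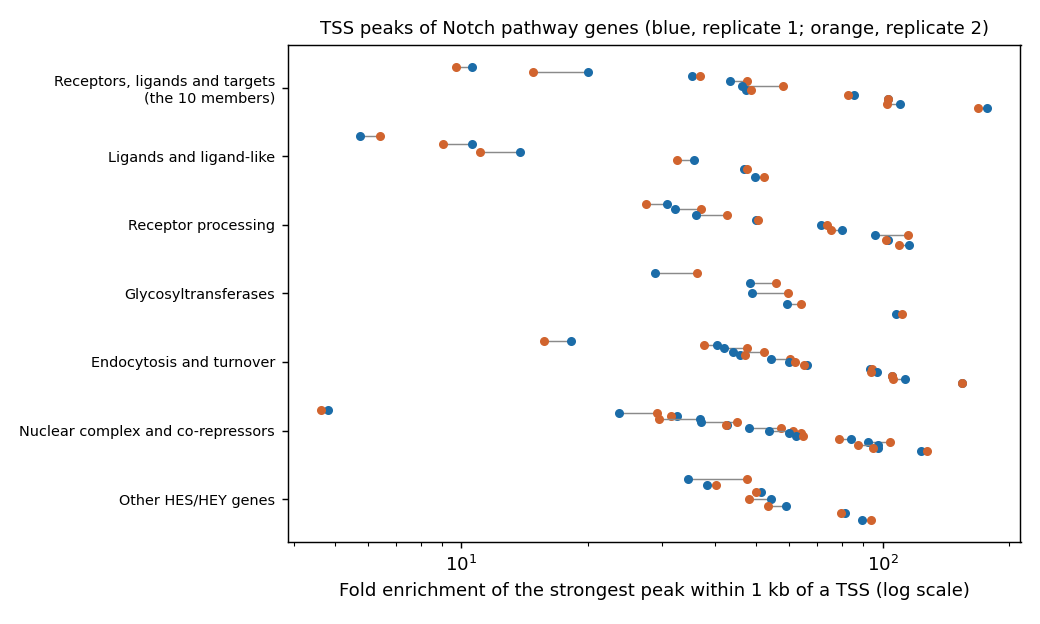
Fold enrichment (x axis, log scale) of the strongest peak within 1 kb of a TSS for the 10 genes and for the 55 further pathway genes with one in both replicates, by group. Each pair of joined points is a gene in replicates 1 and 2, and the lowest pairs belong to RBPJL and MFAP5.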

How the data were processed

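ATAC-seq peak lists of 2 biological replicates of CAMA-1 were analysed. Per the labels, reads were trimmed with Trim Galore 0.6.5, aligned with Bowtie2 2.3.5.1 to hg38 and peaks called with MACS2 2.2.6, according to the submitters' processing notes. Peaks were called in each replicate separately. The handling of duplicate and multi-mapped reads is not given in the sources used here. For every peak the authors deposited its fold enrichment (a ratio over background), −log10 of its p-value and of its q-value, and a score. The score and the −log10 p were not used, and −log10 q served only for an alternative cutoff.

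Peaks of the replicates were merged where they overlapped by at least 1 bp. Genes and TSSs came from GENCODE release 44 and promoters from RefSeq (hg38). Heights were recovered from the steps of the fold enrichment. Words of 32 and 100 bases were searched on both strands of hg38. Motifs were searched in 200 bp windows on both strands, and overlapping matches of different motifs were each counted. Percentiles of TSS peaks were taken among the protein-coding genes with such a peak in both replicates. Percentiles of density were taken among all protein-coding genes, and those of regions among all regions.

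The text names all 10 genes, the strongest region of each away from TSSs, neighbouring genes where their TSS carried a named region, and, per pathway group, the strongest and weakest gene and those without a TSS peak. RBPJ, SEC16A, AGPAT1, LINC02924, intron 6 and intron 16 of NOTCH2, the second region downstream of HES1 and the NOTCH2NL genes were added after their values were seen. The 10 genes and the lists were chosen with earlier results of these data known. No test was run, as the design has 1 condition. Functions were tested on simulated data. Python 3.11.15, numpy 2.4.6, scipy 1.17.1, pysam 0.24.0 and matplotlib 3.10.9 were used.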

Additional observations from a re-analysis of the deposited data

How the results depend on the processing

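Of 71 alternative values, 28 stayed within the limits set for a change and 43 moved, 32 of them densities of single genes. The region count of 160 became 89 in gene bodies alone, 103 with 5 kb either side and 286 with 50 kb, and single replicates gave 186 to 193. The median density of 16.9 per 100 kb became 25.4 in gene bodies alone, 20.8 with 5 kb, 19.6 with 50 kb and 14.3 with −log10 q of at least 10. The share of regions with TGGGAA became 40.6% over whole regions (all regions, 37.9%), 13.1% in 100 bp (9.66%) and 8.13% for GTGGGAA. The share of shared NOTCH2 words became 54.2% with words of 100 bases. The genes with a TSS peak numbered 8 to 10 over all definitions of the TSS and 10 in each single replicate, where the median TSS fold enrichment was 46.9 to 53.4. The uses of the canonical TSS and of 100-base words were chosen after seeing the data. No paired analysis was possible because there is 1 condition.

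The lists hold only called peaks, so weaker accessibility cannot be told from none, and 2 replicates give a rough SD.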
